A study of Mus musculus with 3 samples.

Results

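The genes described here are 34 cell cycle genes, of 31053 genes in the count matrices. They were taken as a list of names that covers the course of a cell division. By their known roles 10 act in DNA replication (*Hist1h1b*, *Pclaf*, *Rrm1*, *Rrm2*, *Tyms*, *Mcm3*, *Mcm5*, *Mcm6*, *Pcna* and *Tk1*), 21 act in or around mitosis (*Mki67*, *Top2a*, *Birc5*, *Ube2c*, *Cdca8*, *Spc24*, *Cdk1*, *Ccnb1*, *Ccnb2*, *Ccna2*, *Cenpa*, *Cenpe*, *Cenpf*, *Tpx2*, *Aurka*, *Aurkb*, *Bub1*, *Bub1b*, *Nusap1*, *Kif11* and *Hjurp*) and 3 (*Stmn1*, *Hmgb2* and *H2afz*) are abundant proteins of dividing cells that other cells also make. The genes were followed in 26008 cells of the mouse limbus and iridocorneal angle, the ring of tissue at the corneal edge with Schlemm's canal and the trabecular meshwork (TM) in it, and the question was which cells there hold transcripts of dividing cells, within and outside a small cluster of the surface epithelium that is rich in them.

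Cells came from 3 droplet libraries, 2 control and 1 *Angpt1*ΔNC. Every mouse carried homozygous *Angpt1* flox alleles, was 6 weeks old and was of a mixed strain, crossed for 2 generations onto the albino ICR stock, and the *Angpt1*ΔNC mice also carried *Wnt1*-Cre, which recombines in the neural crest lineage and so deletes *Angpt1* there and not in endothelium or surface epithelium. Each library was a pool of 4 to 6 eyes from 2 to 3 mice, and with 1 *Angpt1*ΔNC pool no difference between genotypes has a replicate on the mutant side. The libraries kept 9076, 10160 and 6772 cells (control 1, control 2 and *Angpt1*ΔNC, the order used throughout) with medians of 6329.5, 6393.5 and 7444 unique molecular identifiers (UMIs, counted molecules) per cell. *Angpt1* was at 134 and 114 CPM (counts of a gene over all counts of the same class and library, scaled to a common total) in the TM and stromal clusters of the controls and at 0.898 CPM in those of *Angpt1*ΔNC. Pairs of libraries shared 13 to 25 barcodes among kept cells.

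A dividing cell copies its DNA in S phase and separates the copies in mitosis. Genes for the replication machinery are switched on by E2F factors as a cell enters S phase, and genes for the mitotic machinery are switched on later by complexes that bind a CHR element together with CCAAT boxes. In the surface epithelium of the eye the basal cells of the limbus and cornea divide to replace the cells shed from the surface, whereas the corneal endothelium and the retinal pigment epithelium of the adult mouse are held not to divide.

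The promoters of 5 members are shown because they hold the letters of these elements, which the replication and mitosis genes of the list hold to different extents. Each line gives the 150 bases before the RefSeq transcription start (build GRCm38.p6), read along the gene's strand, with matches to the CHR (TTTGAA or TTCGAA), the CCAAT box (CCAAT) or the E2F sites (TTTCCCGC, TTTGGCGC, TTTCGCGC or TTTCCCGG) in capitals, on either strand. *Top2a*, *Ube2c* and *Cdk1* are mitosis genes, at chr11:99024190-99024339 (minus strand), chr2:164769779-164769928 (plus) and chr10:69352913-69353062 (minus). *Mcm6* at chr1:128359706-128359855 (minus strand) and *Rrm2* at chr12:24708104-24708253 (plus) are replication genes. The first E2F run of *Mcm6* is longer than the motif because matches on the 2 strands overlap.
Top2a: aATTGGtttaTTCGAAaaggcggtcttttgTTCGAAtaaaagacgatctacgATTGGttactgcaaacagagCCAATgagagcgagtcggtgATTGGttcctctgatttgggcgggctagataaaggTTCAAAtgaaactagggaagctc
Ube2c: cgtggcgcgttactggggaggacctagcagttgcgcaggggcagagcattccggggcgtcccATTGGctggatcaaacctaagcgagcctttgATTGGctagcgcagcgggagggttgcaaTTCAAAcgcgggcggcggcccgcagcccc
Cdk1: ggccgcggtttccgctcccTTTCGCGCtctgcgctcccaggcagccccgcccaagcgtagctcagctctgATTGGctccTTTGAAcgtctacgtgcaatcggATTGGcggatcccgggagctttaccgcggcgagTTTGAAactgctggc
Mcm6: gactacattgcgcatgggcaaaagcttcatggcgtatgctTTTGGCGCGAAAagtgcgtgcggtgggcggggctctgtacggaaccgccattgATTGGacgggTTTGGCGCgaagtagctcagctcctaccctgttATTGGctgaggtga
Rrm2: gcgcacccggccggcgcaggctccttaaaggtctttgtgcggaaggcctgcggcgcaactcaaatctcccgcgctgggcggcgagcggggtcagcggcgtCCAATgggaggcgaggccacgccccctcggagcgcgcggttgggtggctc

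RefSeq promoters were matched by symbol for 27 of the 34 members, and in these the whole window of 250 bases before to 50 bases after the start was searched. The CHR letters stood in 13 of 17 mitosis promoters, in 0 of 9 replication promoters and in that of *Hmgb2*, compared with 19.2% of all 32851 promoters. CCAAT stood in 15 of 17 mitosis promoters and in 7 of 9 replication promoters, compared with 37.4% of all promoters. An E2F site stood in 4 of 9 replication promoters (*Mcm3*, *Mcm5*, *Mcm6* and *Pclaf*) and in 2 of 17 mitosis promoters (*Cdk1* and *Birc5*), compared with 3.07% of all. A match is a run of letters and not a measured binding site. *Ccna2*, *Spc24*, *Tpx2*, *Aurkb*, *Hist1h1b*, *Stmn1* and *H2afz* were not matched.

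A cell was called cycling when it held a UMI of at least 3 of 25 core members, the list without *Stmn1*, *Rrm1*, *Tyms*, *Mcm3*, *Mcm5*, *Mcm6*, *Pcna*, *Hmgb2* and *H2afz*, which cells that do not divide also make. By this call 782 of the 26008 kept cells were cycling, 301 in control 1 (3.32%, exact 95% interval 2.96 to 3.71), 243 in control 2 (2.39%, 2.103 to 2.71) and 238 in *Angpt1*ΔNC (3.51%, 3.09 to 3.98). Intervals of shares cover counting error only. No core gene was seen in 19341 cells, and 363 cells held 10 or more. Cycling cells were deeper than others, with a median of 23358.5 UMIs compared with 6466.5 in the remaining cells, so that depth alone moves the call. At an equal 5000 UMIs per cell the shares were 3.12%, 2.00% and 2.73%, after leaving out 3043, 3170 and 1784 shallower cells.

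Label 2 of the deposited clusters, which the study named limbal stem cells, consisted of cycling cells throughout. All of its 166 cells (56, 41 and 69) were called, and they held 6 to 24 core genes each with a median of 17. It made up 0.617%, 0.404% and 1.02% of kept cells. Of 8 surface epithelium markers 7 stood at over 2 times their mean over all cells in label 2, and no marker of another tissue list did. *Krt15*, a keratin of limbal basal cells, was at 42.8, 45.0 and 50.9 UMIs per 10000 in label 2, whereas *Krt12*, the keratin of corneal epithelium, was at 3.78, 2.25 and 1.76. The integrated values deposited with the labels cover 3467 genes, 27 members among them, so the members may have entered the clustering and the contrast of label 2 with other labels was not tested.

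**Figure D1:**
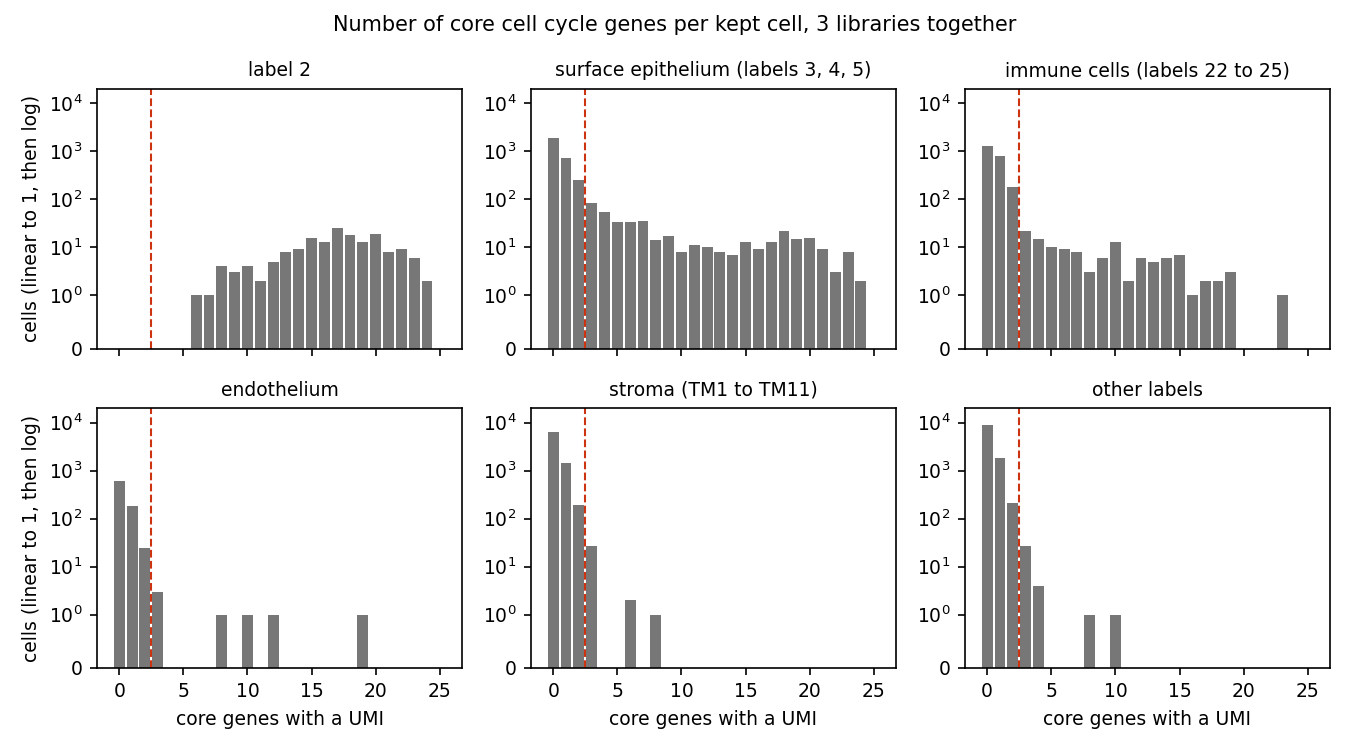
Number of core cell cycle genes with a UMI (horizontal axis, 0 to 25) against the number of kept cells (vertical axis, linear to 1 and logarithmic above) with the 3 libraries together, in a panel each for label 2, surface epithelium, immune cells, endothelium, the TM and stromal clusters and the other labels. The dashed line marks the call at 3 genes. Every cell of label 2 lies to its right, and in surface epithelium and immune cells a tail reaches beyond 10 core genes.

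Among mitosis genes, *Mki67*, which codes for a protein coating mitotic chromosomes, was at 1.36, 1.48 and 0.747 UMIs per 10000 in label 2. *Top2a*, the topoisomerase that untangles sister chromosomes, was at 2.59, 2.59 and 1.88. *Birc5* (survivin, a part of the chromosomal passenger complex) was at 2.59, 2.93 and 2.28, and *Aurkb*, the kinase of the same complex, was at 0.362, 0.332 and 0.240. In each of these the *Angpt1*ΔNC library was the lowest. *Cdk1*, the kinase that drives entry into mitosis, was at 1.34, 1.93 and 1.19, and its partner cyclin gene *Ccnb1* was at 0.393, 0.790 and 0.239. Both were highest in control 2 and lowest in *Angpt1*ΔNC.

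Of the replication genes in label 2, *Rrm2*, the regulated subunit of ribonucleotide reductase, was at 0.865, 1.74 and 0.632 UMIs per 10000. *Pclaf*, which codes for a partner of the sliding clamp PCNA, was at 1.84, 2.17 and 2.60 and was highest in *Angpt1*ΔNC. *Mcm6*, a subunit of the replicative helicase, was at 0.497, 0.631 and 0.512, 1.74 to 2.76 times its level outside label 2. *Pcna* itself was at 0.425, 0.283 and 0.215, or 1.54, 1.01 and 0.912 times its level in the other cells of the same library. *Pcna* was the exception among the 34 members, since the other 33 were above the remaining cells in every library and 24 were more than 10 times above them in every library. The share of all genes above the remaining cells was not computed. As the members may have entered the clustering, these counts only describe label 2.

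The broad members were high in label 2 and present elsewhere. *Stmn1*, which destabilises microtubules, was at 14.2, 19.7 and 14.6 UMIs per 10000 in label 2. *Hmgb2*, a chromatin protein, was at 8.30, 11.3 and 9.05. *H2afz*, a histone variant gene, was at 33.1, 32.7 and 30.7, only 2.55 to 2.76 times its level in the remaining cells.

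Most cycling cells were outside label 2. They numbered 616, or 78.8% of all cycling cells, with 245 (2.72%) in control 1, 202 (2.00%) in control 2 and 169 (2.52%) in *Angpt1*ΔNC, and 27 of the other 34 labels held at least 1. The background of the call was read in the retinal pigment epithelium (label 1) and the corneal endothelium (TM2). There 5 of 231 cells (2.16%, interval 0.706 to 4.98, median depth 15015 UMIs) and 6 of 1153 cells (0.520%, 0.191 to 1.13, median 7253) held 3 or more core genes, and none held 5 or more. A share at this level was therefore read as background, and cells with 5 or more core genes were read as above it. Of the 34 labels 13 held such a cell. Single core genes also stood in non-cycling cells, at levels that differed by label. *Cdk1* was at 0.39 UMIs per 10000 in label 1, *Tpx2* at 0.20 in TM2 and *Cenpa* at 2.19 in label 22. Whether the same background holds in other labels, the immune labels among them, was not tested.

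**Figure D2:**
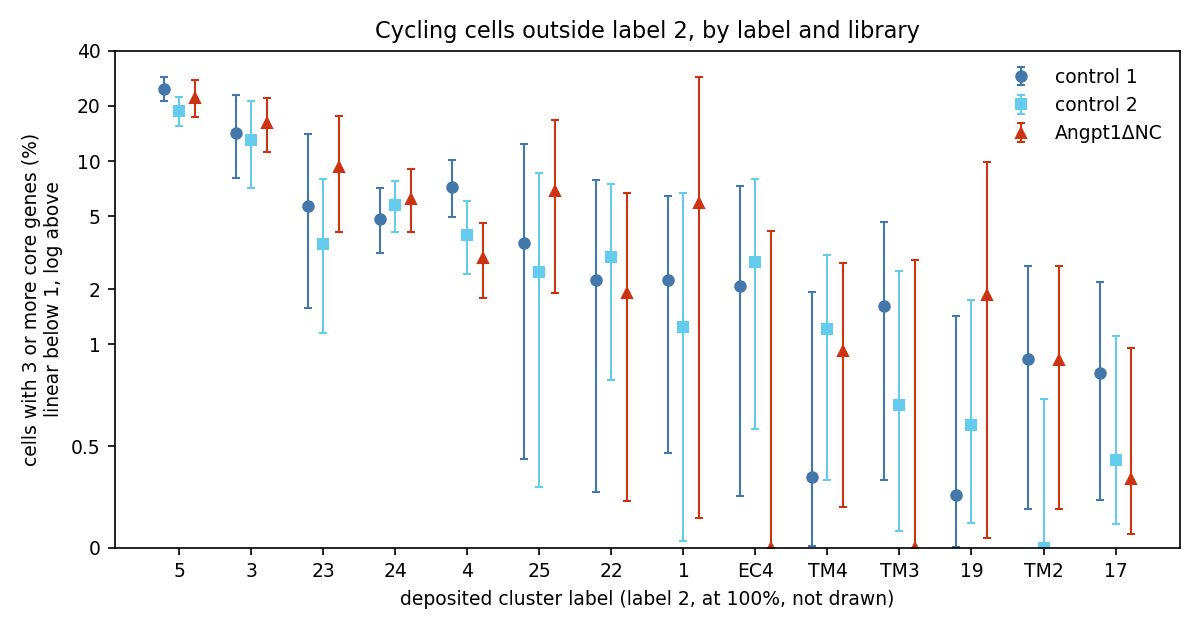
Share of cells with 3 or more of 25 core genes (vertical axis, percent, linear below 1 and logarithmic above) for the 14 deposited labels other than label 2 with at least 5 such cells (horizontal axis), with a point for each library and its exact 95% interval. Label 5 lies highest at 18.8% to 24.9% and label 3 next to it at 13% to 16.1%, while the intervals of the labels from EC4 to the right reach close to 0.

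The corneal epithelium (label 5) was the largest source. It held 143 (24.9%, 21.4 to 28.6), 95 (18.8%, 15.5 to 22.5) and 60 (22.2%, 17.4 to 27.7) cycling cells, or 48.4% of the cycling cells outside label 2 and 68.4% of those with 10 or more core genes. The *Angpt1*ΔNC share lay between the controls. At 5000 UMIs per cell the 3 shares were 15.5%, 9.42% and 12.9%. By their keratins these cycling cells were closer to the non-cycling cells of label 5 than to label 2. *Krt12* was at 146, 129 and 137 UMIs per 10000 in them and at 175, 128 and 118 in the non-cycling cells of label 5, and *Krt15* was at 1.34, 2.74 and 16.3 in the cycling cells and at 0.86, 3.22 and 16.5 in the non-cycling cells. *Krt15* was thus higher in *Angpt1*ΔNC in both sets of label 5 cells alike.

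In label 5 the level of a member depended on the minimum of the call. *Top2a* was at 0.94, 0.60 and 0.96 UMIs per 10000 in all cycling cells of label 5 and at 1.81, 1.30 and 1.72 in the 141 cells with 10 or more core genes. *Mki67* was at 0.74, 0.87 and 0.79 in the latter, and *Birc5* was at 2.17, 2.22 and 1.93. *Pclaf* was at 3.51, 3.19 and 2.51 in the same cells, *Cdk1* was at 0.97, 0.79 and 0.65, and *Rrm2* was at 1.69, 1.41 and 0.44. Control values of *Pclaf* in these cells were above those in label 2, while those of *Mki67*, *Top2a* and *Birc5* were below. The summed level of the 21 mitosis genes was 23.2 UMIs per 10000 in label 2, 18.8 in label 5 cells with 10 or more core genes and 0.210 in non-cycling label 5 cells. The summed level of the 10 replication genes was 9.96, 10.96 and 0.693 in the same sets. All 21 mitosis genes and some of the replication genes are core genes of the call. High levels in called cells and low levels in the others therefore follow in part from the call itself.

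The other surface epithelium labels differed in how many core genes their cells held. Label 3, conjunctival epithelium, held 14 (14.3%), 13 (13%) and 31 (16.1%) cycling cells, and 10 of these 58 had 10 or more core genes. Label 4, limbal epithelium, held 30 (7.25%), 20 (3.94%) and 19 (2.96%), of which 3 cells in all, each from control 1, had 10 or more. At 5000 UMIs the shares were 4.44%, 3.06% and 2.19% in label 3 and 1.79%, 1.19% and 0.799% in label 4. In the cycling cells of label 4 *Top2a* was at 0.28, 0.08 and 0.19 UMIs per 10000, *Ube2c*, the E2 enzyme of the anaphase promoting complex, was at 0.87, 0.31 and 0.47, and *Pclaf* was at 1.27, 1.59 and 0.67.

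Immune cells were the other source. Label 24, of the monocyte lineage by 5 of 5 markers over 2 times their mean, held 25 (4.85%), 38 (5.77%) and 25 (6.23%) cycling cells, and 41 of these 88 had 10 or more core genes, 19.9% of such cells outside label 2. Thinned to 5000 UMIs the shares were 4.69%, 5.51% and 5.62%. The complement gene *C1qa* was at 46.4 UMIs per 10000 in the cycling cells and at 47.6 in the non-cycling cells of label 24, the receptor gene *Csf1r* was at 4.42 and 5.20, and the keratin *Krt14* was at 0.40 and 0.31. *Lyz2*, the lysozyme gene of monocytes and macrophages, was at 25.0 in the cycling cells and at 54.8 in the others.

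In label 24 cells with 10 or more core genes *Mki67* was at 2.09, 2.70 and 1.71 UMIs per 10000, above its level in label 2 in each library. *H2afz* was at 41.0, 45.4 and 34.9 there and *Pclaf* at 2.84, 5.07 and 2.86. *Ccnb1*, at 0.15, 0.21 and 0.18, was below its label 2 level in each library. *Ube2c*, at 1.85, 2.22 and 2.85, was also below label 2 in each library. The sum of the replication genes was 15.4 and that of the mitosis genes 21.5 UMIs per 10000 over these cells, compared with 9.96 and 23.2 in label 2. The label 24 cells were picked by core genes, *Mki67*, *Pclaf*, *Ccnb1* and *Ube2c* among them, while label 2 was taken whole. Their levels of these genes are thus not independent of the call.

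The smaller immune labels held few cycling cells. Label 23, with 4 of 5 monocyte and 3 of 3 dendritic cell markers over 2 times their mean, held 4, 5 and 8 (17 of 298 cells, 10 of them with 5 or more core genes). Label 22, with B and T cell markers, held 2, 4 and 2 (8 of 327, 5 with 5 or more). Label 25 held 2, 2 and 4 (8 of 195, 5 with 5 or more), at a median of only 1219.5 UMIs in the 8 cells.

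Outside label 2, the surface epithelium and the immune labels, 70 of 20145 cells (0.347%) were called, 25, 25 and 20, a share below the 0.520% of the corneal endothelium. Both labels used to read the background are themselves among these cells. Label 17 held 11 (4, 4 and 3), TM4 8 (1, 4 and 3), TM3 5 (3, 2 and 0), EC4 5 (2, 3 and 0) and label 19, smooth muscle, 5 (1, 3 and 1). Cells with 5 or more core genes numbered 9 in these classes, 4 of them endothelial. In EC4 3 cells of control 2 held 8, 10 and 19 core genes together with 2, 9 and 10 UMIs of *Cdh5* (VE-cadherin), and a Schlemm's canal cell of control 1 held 12 core genes and 33 *Cdh5* UMIs. A smooth muscle cell of control 2 held 10 core genes and 109 UMIs of *Acta2*, the smooth muscle actin gene. The remaining 4 were in TM10 (2 cells), TM7 and label 7. All 9 cells were in the control libraries, which held 7203 and 7992 cells of these classes. The *Angpt1*ΔNC library had 0 of 4950 cells (a count of 0 allows a share of up to 0.0606% by a floor of 3 counts). With so few cells no difference between genotypes can be read from these counts, and none was tested.

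The members differed in how closely they kept to cycling cells. For each gene the share of its UMIs that lay in cells called by at least 3 other core genes was taken, where cycling cells held 9.20% of the UMIs of all genes. *Bub1*, a kinase of the spindle checkpoint, had 96.9% of its UMIs there, *Aurkb* 94.6%, *Ube2c* 94.5%, *Pclaf* 94.2%, *Hist1h1b*, a linker histone gene, 93.6% and *Birc5* 91.9%. For 24 members the share was over 50%. It was 78.8% for *Top2a*, 78.4% for *Cdk1*, 74.9% for *Mki67* and 73.4% for *Ccnb1*.

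At the low end *Pcna* had 8.74% of its UMIs in cycling cells, about what the cells' share of all UMIs gives. *Mcm6* had 15.0%, *Rrm1* 16.3%, *H2afz* 17.02% and *Hjurp*, whose protein loads the centromeric histone, 18.6%. Of the core members 3 had under 50%, namely *Hjurp*, *Aurka* (36.5%) and *Cenpa* (41.6%). *Stmn1* with 66.2% kept to cycling cells more closely than *Hmgb2* with 34.5%.

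**Figure D3:**
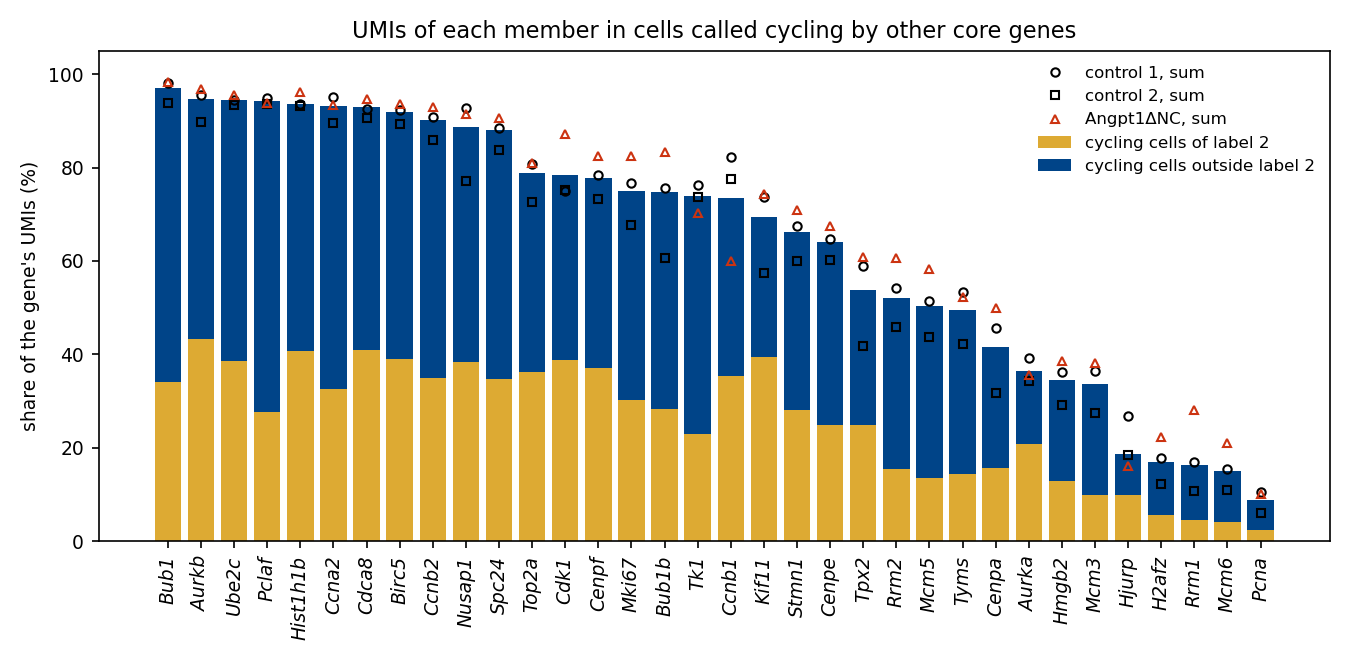
Share of each member's UMIs (vertical axis, percent, 3 libraries together) that lay in cells called cycling by at least 3 core genes other than the gene itself, for the members ordered along the horizontal axis. Bars split the share into cycling cells of label 2 and cycling cells outside it, open symbols give the whole share in each library, and the bars run from 8.74% for *Pcna* to 96.9% for *Bub1*.

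Several members had their own pattern among non-cycling cells. *Mcm6* was highest in smooth muscle (label 19) at 1.79, 1.77 and 1.93 UMIs per 10000, compared with 0.497, 0.631 and 0.512 in label 2. Of the other helicase genes *Mcm3* was highest in EC3 at 0.47, 0.58 and 0.38 and *Mcm5* in label 25 at 0.48, 0.45 and 0.13. The *Mcm5* values rest on only 13 UMIs in 187 cells. *Cenpa*, the centromeric histone gene, was at 2.80, 1.81 and 2.14 in non-cycling cells of label 22, compared with 1.75, 2.05 and 1.38 in label 2, so that label 22 was the lower in control 2. *Pcna* was highest in EC4 at 0.52, 0.59 and 0.60. *Rrm1*, the large subunit of ribonucleotide reductase, was highest in label 21 at 0.63, 0.89 and 0.65. *Cdk1* was at 0.41, 0.40 and 0.15 in the retinal pigment epithelium, from 142 UMIs. *Stmn1* was highest in the glial label 10 at 3.26, 2.96 and 4.19. *Mki67* outside cycling cells was highest in label 23 at 0.41, 0.33 and 0.27.

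Further cell cycle genes that the call did not use were read in the same cells, outside label 2. Of 58 such genes 49 were higher in cycling than in non-cycling cells of the surface epithelium in all 3 libraries. Of the rest, 1 was lower in all 3 and 8 were mixed. Of all genes with a UMI in this class 18.9% were higher in all 3 and 20.4% were lower. Among genes with at least 100 UMIs there, 37 of 45 of the list and 29.1% of all genes were higher. The list includes *H2afv*, the locus named in the *Wnt1*-Cre allele of the study. The higher genes included 24 of 24 mitosis genes, 9 of 10 replication genes, 7 of 9 regulators and 8 of 14 cyclins, kinases and inhibitors of early G1. *Cdc20*, the activator of the anaphase promoting complex, was at 0.47, 0.45 and 0.33 UMIs per 10000 in cycling cells and at 0.02, 0.03 and 0.02 in the others. *Ccnd2*, a D-type cyclin gene, was the lower one at 0.57, 0.62 and 1.29 compared with 0.95, 1.25 and 1.82. Cycling cells were deeper, and the part of depth in these differences was not tested.

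In immune cells 40 of the 58 genes were higher in all 3 libraries, 21 of 24 mitosis genes among them, where 11.5% of all genes were. *Cks1b*, a small partner of the cyclin-dependent kinases, was at 2.56, 2.26 and 2.23 UMIs per 10000 in cycling immune cells and at 0.13, 0.16 and 0.12 in the others. *Cdkn1a*, the p21 inhibitor gene, was lower in all 3 at 10.4, 6.77 and 8.47 compared with 12.7, 9.83 and 12.4. Among all genes 21% were lower in all 3. In the TM and stromal clusters, where 30 cells were called, 7 genes were higher, 21 were lower and 30 mixed. Among all genes there 4.35% were higher in all 3 libraries and 33.1% were lower. The 21 lower genes are therefore not read as a result.

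Taken over all cells, the share of cycling cells in *Angpt1*ΔNC lay above both controls, and outside label 2 it lay between them. The *Angpt1*ΔNC share was 1.23 times the mean of the controls over all cells and 1.07 times outside label 2, while the controls themselves differed by 1.39 and 1.36 times. Against single controls the *Angpt1*ΔNC share was 1.06 to 1.47 times over all cells and 0.928 to 1.26 times outside label 2. Outside label 2 it was 0.788 of the control mean when cells were thinned to 5000 UMIs. In surface epithelium (labels 3 to 5) the shares were 17.2%, 11.5% and 9.97%, and in immune cells they were 4.52%, 4.83% and 6.00%. With label 2 counted in, 21.3% (243 of 1143), 14.7% (169 of 1153) and 15.3% (179 of 1172) of the surface epithelium was cycling, and *Angpt1*ΔNC then lay between the controls. These shares were not tested. Since *Hist1h1b*, *Rrm2* and *Hjurp* differed by genotype in the tests of single genes, the call was repeated without them, after the data were seen. The shares were then 2.94%, 2.08% and 3.13% over all cells. In the classes outside label 2, surface epithelium and immune cells, 17 of 7203 (0.236%), 10 of 7992 (0.125%) and 5 of 4950 cells (0.101%) were called. *Angpt1*ΔNC there had the lowest share, whereas by the full call it had the highest. *Cenpf*, which differed in label 2, was kept in the call.

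For single genes, UMIs were summed per library over a class of cells and tested in edgeR over all genes, where the lone *Angpt1*ΔNC library is assumed to vary like the controls. In bulk sums of this kind fewer expressing cells and less RNA per cell cannot be told apart. Over all kept cells 0 of 34 members passed an adjusted p of 0.05 by edgeR's quasi-likelihood test, where 0.00576% of the 17352 genes tested did so. 7 members had an unadjusted p under 0.05, and DESeq2 called 4 members (*Hist1h1b*, *Rrm1* and *Rrm2* lower, *Hjurp* higher), where it called 6.69% of genes. The median log2 fold change of the members was 0.15, compared with -0.02 over all genes.

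In label 2, 2 of 34 members passed, both lower in *Angpt1*ΔNC, where 2.18% of the 8356 genes tested were called and 0.862% were called lower. *Hist1h1b* was at 452, 467 and 47.1 CPM, a log2 fold change of -3.10 ± 0.23 (SE, edgeR adjusted p = 5.67e-06). The *Angpt1*ΔNC value lay far below both controls, which were close to each other. *Cenpf*, which codes for a kinetochore protein, was at 104, 138 and 46.7 CPM (-1.19 ± 0.28, edgeR adjusted p = 0.0489), and it did not pass with DESeq2 (adjusted p = 0.209) or with DESeq2's size factors in edgeR (0.0581), settings that each called 1 member and 2.88% and 1.96% of genes. In 24 members the *Angpt1*ΔNC level was below both controls, as it was in 50.7% of all genes tested. The median log2 fold change of the members was -0.25, compared with -0.03 over all genes.

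**Figure D4:**
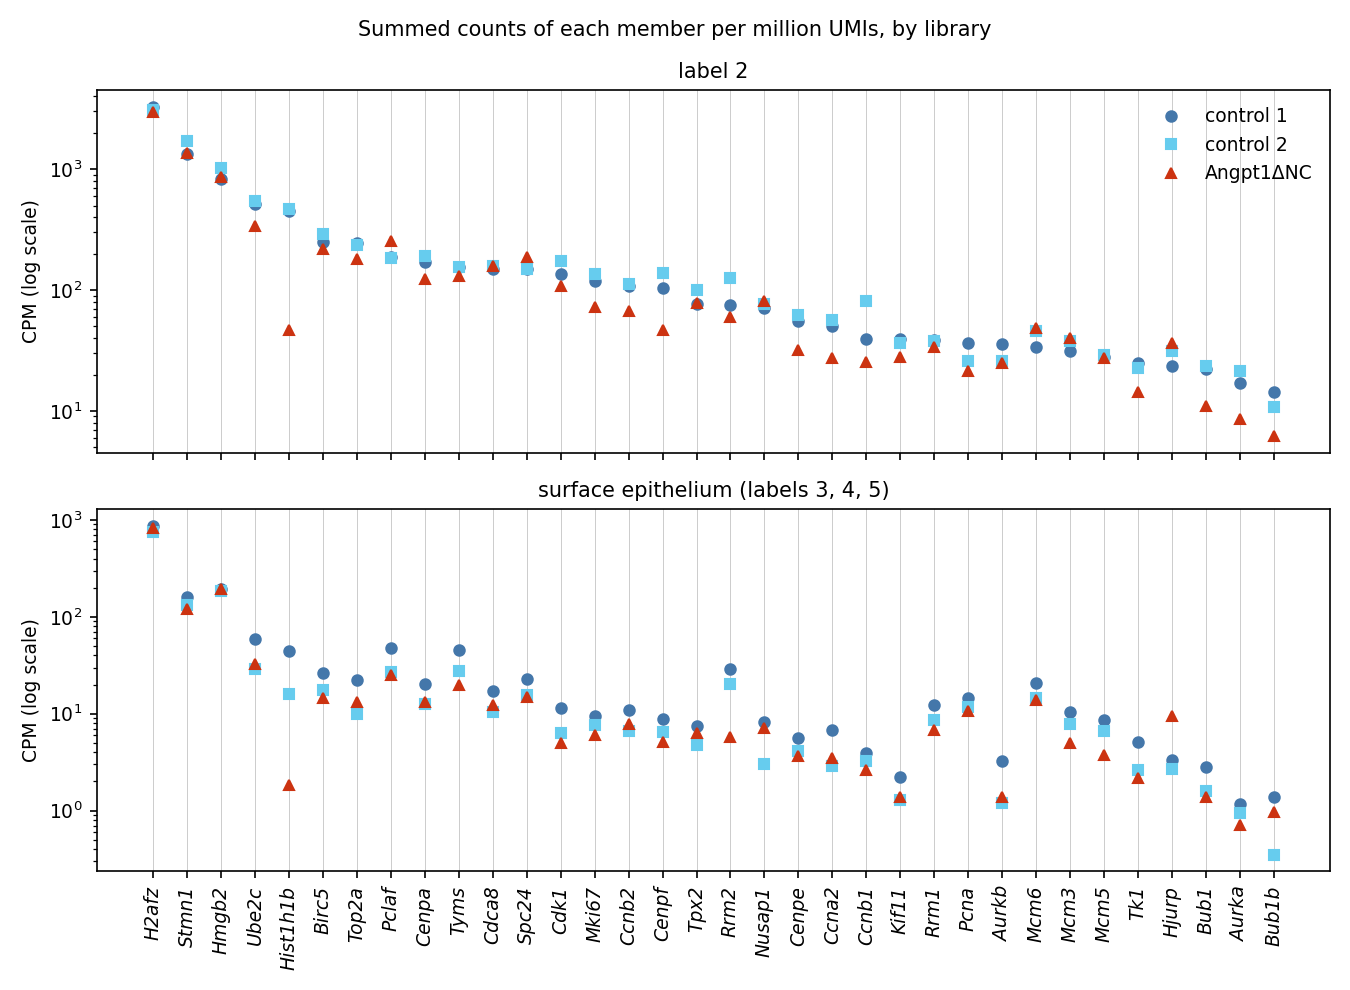
Level of each member (horizontal axis) in label 2 and in the surface epithelium of labels 3, 4 and 5 (vertical axis, CPM of the summed counts, logarithmic), with a point for each of the 3 libraries. The points of *Hist1h1b* in label 2 are at 452 and 467 CPM for the controls and at 47.1 CPM for *Angpt1*ΔNC.

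In surface epithelium 2 of 34 members passed, where 2.34% of the 12788 genes tested did. Label 5, the richest in cycling cells, made up 575 of 1087, 505 of 1112 and 270 of 1103 cells of this class, and the part of this in the sums was not tested. *Rrm2* was at 29.1, 20.1 and 5.80 CPM (log2 fold change -2.003 ± 0.26, edgeR adjusted p = 0.0334), and within label 5 it was at 0.38, 0.26 and 0.10 UMIs per 10000. *Hjurp* was at 3.29, 2.70 and 9.42 CPM (1.73 ± 0.25, edgeR adjusted p = 0.0378). *Hist1h1b* was at 44.9, 15.9 and 1.86 CPM and did not pass (edgeR adjusted p = 0.0566), the controls being apart from each other as well, while it passed with DESeq2 (adjusted p = 0.0130). The members' median log2 fold change was -0.36, compared with -0.02 over all genes, and 20 members lay below both controls, as did 46.2% of genes. Without the filter on low counts 6 members and 10.3% of genes were called. With label 2 added to this class 0 of 34 members passed in edgeR, where 0.139% of genes did, 4 members had an unadjusted p under 0.05 and DESeq2 called 3 members (4.49% of genes). Without the filter edgeR called 3 there (10.6% of genes).

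In the TM and stromal clusters, 27 members passed the filter on low counts and 3 of these were called, where 8.97% of the 13942 genes tested were. *Mki67*, *Cdca8*, *Ccna2*, *Aurkb*, *Bub1*, *Bub1b* and *Tk1* were too low to test. *Rrm1* was at 25.6, 28.2 and 7.25 CPM (log2 fold change -1.89 ± 0.19, edgeR adjusted p = 0.000873). *Rrm2* was at 6.35, 6.04 and 2.89 CPM (-1.09 ± 0.26, edgeR adjusted p = 0.0360) and did not pass with DESeq2 (adjusted p = 0.337). *Hjurp* was at 4.21, 4.11 and 16.0 CPM (1.95 ± 0.19, edgeR adjusted p = 0.000680). Within this class the *Rrm1* level was highest in TM8 and TM7, which together made up 1258 of 2803, 1351 of 3324 and 329 of 1946 cells of this class, while within them it was also lowest in *Angpt1*ΔNC, at 0.48, 0.52 and 0.08 UMIs per 10000 in TM7 and at 0.52, 0.55 and 0.09 in TM8. In each of the 3 genes the controls lay close together and apart from *Angpt1*ΔNC. Without the filter 6 members and 12.3% of genes were called. Of the 8073 cells in this class 30 were called cycling.

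In immune cells 30 members were tested (not *Ccnb1*, *Bub1*, *Bub1b* or *Kif11*) and 2 were called, where 4.19% of the 10395 genes tested were. *Hist1h1b* was at 32.0, 28.2 and 2.94 CPM (log2 fold change -3.30 ± 0.32, edgeR adjusted p = 0.000101). *Hjurp* was at 2.35, 1.77 and 11.3 CPM from 10, 11 and 46 UMIs (2.50 ± 0.42, edgeR adjusted p = 0.00517). The call of *Hjurp* did not hold with DESeq2 (adjusted p = 0.376) or with its size factors in edgeR (0.0905), while that of *Hist1h1b* held in both, and these settings called 0.831% and 0.317% of genes.

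*Hjurp* and *Hist1h1b* were then followed label by label. *Hjurp* (chr1:88262471-88277633, minus strand, mm10) had at least 10 UMIs in 29 labels and was above both controls in 28 of them, the exception being the 16 cells of the lymphatic endothelium at 1.88, 0 and 0.72 UMIs per 10000. Of 9494 genes with 10 or more UMIs in at least 20 labels, 0.874% were above both controls in at least 90% of their labels. The 28 labels included endothelial, immune and surface epithelial cells, which are not of neural crest origin, as well as TM clusters. The cause of the higher level was not tested. Over all kept cells it was at 3.46, 3.51 and 13.2 CPM from 266, 282 and 877 UMIs, and 26.7%, 18.4% and 16.2% of its UMIs lay in cells called cycling by other core genes.

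**Figure D5:**
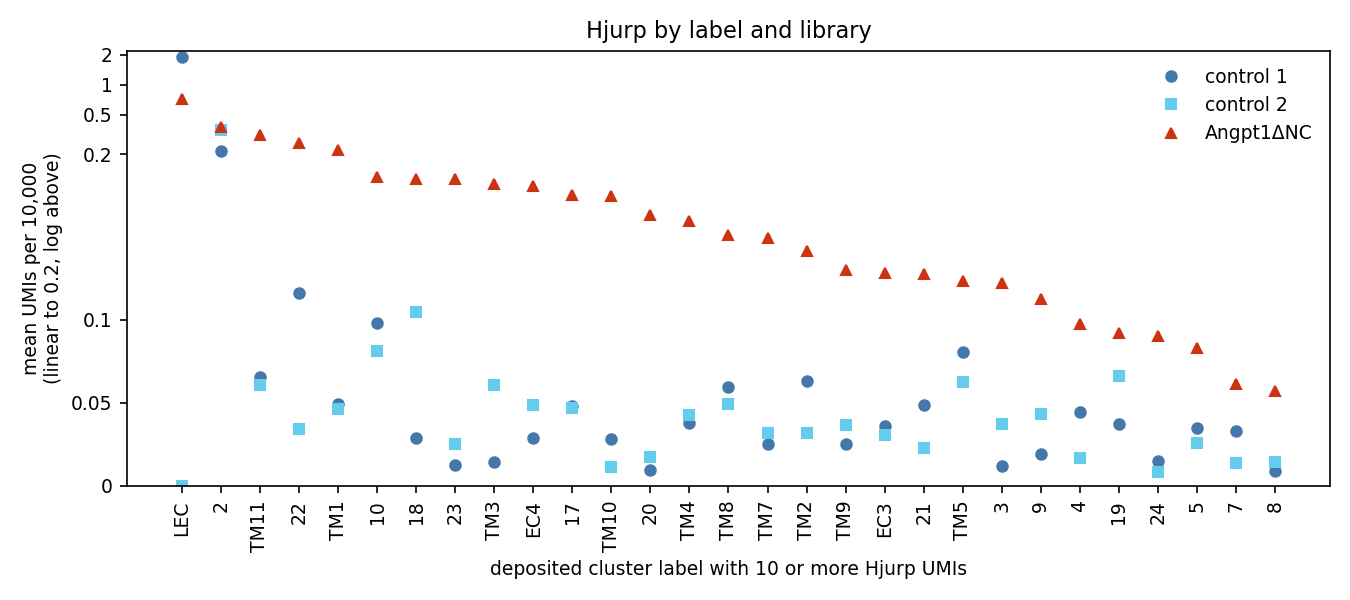
Level of *Hjurp* (vertical axis, mean UMIs per 10000, linear to 0.2 and compressed above) in the 29 labels with at least 10 of its UMIs (horizontal axis), with a point for each library. *Angpt1*ΔNC lies above both controls in 28 of the 29 labels.

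*Hist1h1b* (chr13:21779883-21780625, minus strand, mm10) stayed in cycling cells in every library, with 93.6%, 93.1% and 96.1% of its UMIs there. It reached 10 UMIs in 8 labels and lay below both controls in 6, as did 42.5% of all pairs of a gene and a label with 10 or more UMIs. In cycling cells of label 5 it was at 2.06, 0.92 and 0.14 UMIs per 10000 and in those of label 24 at 3.88, 3.29 and 0.20, so that it was low in *Angpt1*ΔNC in each main source of cycling cells. Over all kept cells it was at 23.9, 11.9 and 2.32 CPM. Transcripts of replication-dependent histone genes mostly end in a stem-loop and not in a poly(A) tail, on which droplet libraries prime, and the part of this in its values was not tested. Without *Hist1h1b* the summed replication genes of label 2 were at 6.50, 7.92 and 6.58 UMIs per 10000, *Angpt1*ΔNC between the controls, whereas with it they were at 11.1, 13.2 and 7.10.

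Of the pair that forms ribonucleotide reductase, *Rrm1* was below both controls in 23 of 33 labels and *Rrm2* in 16 of 22, beside the same 42.5% of all pairs. In label 2 *Rrm1* was at 38.7, 37.6 and 33.8 CPM (log2 fold change 0.01 ± 0.28) and *Rrm2* at 75.3, 126 and 60.0 CPM (-0.54 ± 0.32). Neither of them passed. The fold changes use normalization factors that the CPM do not, so the fold change of *Rrm1* is near 0 though its *Angpt1*ΔNC CPM is the lowest. Among the further genes, *H2afv*, the paralogue of *H2afz* and the locus named in the *Wnt1*-Cre allele of the study, was below both controls in 34 of 35 labels, where 1.21% of genes were so in at least 90% of their labels. It was at 661, 832 and 307 CPM in label 2 (-1.10 ± 0.20, edgeR adjusted p = 0.0109) and at 173, 170 and 76.5 CPM in the TM and stromal clusters (-1.16 ± 0.15, edgeR adjusted p = 0.00295).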

How the data were processed

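The authors aligned droplet reads to mm10 with Cell Ranger (2.1.1 in the submitters' processing notes, 3.0.2 in the matrix headers) and deposited UMI counts per gene and cell, together with cluster labels from Seurat (3.1.3) integration. The deposited integrated values on a natural log scale were not used. Kept cells, 26008 in all, are those with a deposited label, and the study had removed predicted doublets and cells with under 1000 UMIs, under 200 genes or over 10% mitochondrial counts. The members and the lists were chosen with earlier results of these data known. Core genes were counted per cell, levels are mean UMIs per 10000 over cells, and CPM are summed counts of a class and library scaled to a common total (Python 3.11.15). CPM are printed without the TMM factors that the edgeR fold changes use, so a fold change can differ from the ratio of the printed CPM. Counts were summed per library and tested with edgeR 4.0.16 (filterByExpr, TMM, quasi-likelihood, Benjamini-Hochberg over all genes, 1 residual degree of freedom in R 4.3.3), with DESeq2 1.42.0 as an alternative. The self-test on simulated data recovered 79% to 92% of genes changed by 2 on the log2 scale and 35% to 59% of those changed by 1. Its dispersion was set alike for all genes and not estimated from these libraries. These shares are therefore not the power of the tests on the data. Cells were thinned to 2000 or 5000 UMIs. Given in full are 13 members fixed by name, members called between genotypes and labels with at least 5 cycling cells. 4 alternatives to the cycling call or the classes (10 core genes, 2 calls with genes left out, and surface epithelium with label 2) were chosen after seeing the data. Nothing states that pools of a group are separate litters. With 1 *Angpt1*ΔNC pool the p-values rest on the spread between the 2 control pools and hold none between *Angpt1*ΔNC pools. Gene positions are from GENCODE on mm10, and 7 members overlap another gene on their strand.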

Additional observations from a re-analysis of the deposited data

Results flagged for a closer look

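The share of cycling cells in *Angpt1*ΔNC was 0.695 of the control mean in surface epithelium (labels 3, 4 and 5), below both controls, and 1.28 times the control mean in immune cells, above both controls. The opposite directions drew attention, and their difference was not tested. Label 5, the label with the highest share, made up 575 of 1087, 505 of 1112 and 270 of 1103 cells of the surface epithelium, and within labels the ratio was 1.18 in label 3, 0.530 in label 4 and 1.02 in label 5. With label 2 counted in, *Angpt1*ΔNC lay between the controls. The part of this make-up in the ratio was not tested. At 5000 UMIs per cell the shares were 9.40%, 5.09% and 4.01% in surface epithelium and 5.27%, 5.24% and 5.90% in immune cells, each time for control 1, control 2 and *Angpt1*ΔNC, and without *Hist1h1b*, *Rrm2* and *Hjurp* in the call the ratios were 0.729 and 1.27.

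*Pttg1* (securin, which holds back the separation of sister chromosomes) was lower in *Angpt1*ΔNC in label 2, at 188, 268 and 79.0 CPM (log2 fold change -1.34 ± 0.26, edgeR adjusted p = 0.0151), and higher in the TM and stromal clusters, at 34.2, 34.8 and 71.2 CPM (1.05 ± 0.13, edgeR adjusted p = 0.00265). Label by label, *Pttg1* was above both controls in 30 of 35 labels and below both in 1. Of all pairs of a gene and a label with 10 or more UMIs, 33.3% were above both controls. The rise was thus not particular to the TM and stromal clusters. The difference between the classes was not tested.

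Cells that passed the filters on UMIs, genes and mitochondrial counts and were dropped by the authors as predicted doublets stood outside every comparison. By the same call 6.65% (62 of 932), 4.21% (50 of 1189) and 9.34% (45 of 482) of them were cycling in control 1, control 2 and *Angpt1*ΔNC, above the shares of the kept cells in each library. Their median depths were 13212, 13318 and 16803.5 UMIs, and the part of depth in these shares was not tested.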

How the results depend on the processing

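With a minimum of 2 core genes the cycling shares were 6.69%, 5.25% and 7.43% of all kept cells and 6.11%, 4.86% and 6.47% outside label 2. With 5 they were 2.43%, 1.61% and 2.39% and 1.83%, 1.22% and 1.39%, and with 10 they were 1.61%, 0.994% and 1.71% and 1.02%, 0.613% and 0.776%. Thinned to 2000 UMIs they were 1.55%, 0.994% and 1.43% and 0.973%, 0.611% and 0.599%. Thinned to 5000 UMIs they were 2.00% and 2.73% in control 2 and *Angpt1*ΔNC over all cells, and 2.22%, 1.44% and 1.44% outside label 2. Without *Hist1h1b*, *Rrm2* and *Hjurp* in the call they were 2.94% and 2.08% in the controls over all cells and 2.34%, 1.68% and 2.13% outside label 2. Without *Cenpa* and *Mki67* the *Angpt1*ΔNC share outside label 2 was 2.13%. Outside label 2 the shares without labels 3, 4 and 5 were 0.731%, 0.822% and 1.05%, and without cells holding 2 or more keratin UMIs 0.755%, 0.764% and 0.934%. Outside label 2 the ratio of *Angpt1*ΔNC to the control mean turned to 0.757 and 0.788 at 2000 and 5000 UMIs, and the cause was not tested. Leaving out either control gave ratios of 1.06 to 1.47 over all cells and 0.928 to 1.26 outside label 2.

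DESeq2 called 4 members over all kept cells, 1 in label 2, 1 in immune cells and 3 in surface epithelium with label 2. It called 3 in surface epithelium (4.51% of genes) and 2 in the TM and stromal clusters (4.89% of genes). DESeq2's size factors in edgeR left 1 member called in label 2 and 1 in immune cells. Without a filter on low counts 6 members were called in surface epithelium, 6 in the TM and stromal clusters and 3 in surface epithelium with label 2. Of 150 alternatives for single members 148 kept the direction, and 18 of the 87 that were tested fell on the other side of the threshold. The exceptions were *Rrm1* in label 2 (-0.0067 to 0.037 when either control was left out) and *Rrm2* in immune cells (-0.97 to 0.73), each turned without control replicate 2. These alternatives cover only *Hist1h1b*, *Cenpf*, *Rrm1*, *Rrm2* and *Hjurp*, the members called between genotypes in these same libraries. They do not speak for the other members. The members' median log2 fold change ranged from -0.050 to 0.30 over all kept cells and from -0.34 to 0.12 in surface epithelium with label 2 when either control was left out, from -0.53 to -0.08 in surface epithelium from -0.44 to -0.11 in the TM and stromal clusters and from 0.03 to 0.23 in immune cells. Counts of called members were not computed without a control, since no residual degree of freedom is left. No paired analysis was possible because no pairing of the pools is recorded and there is only 1 *Angpt1*ΔNC pool. Replicate numbers were given in accession order and pair no pools.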
